A study of Mus musculus with 12 samples.

Results

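The copines are a family of 9 genes in the mouse, Cpne1 to Cpne9, and they are described here in leg muscle with and without the muscle methyltransferase SMYD1. Cpne2 was chosen by its FPKM values, which were much higher in the Smyd1 conditional knockout (CKO) than in controls, and the other 8 genes were added by family name to ask whether the difference was shared across paralogs. All 9 symbols had a row in each of the 12 deposited files, out of 23923 genes. The values are FPKM, fragments normalized to transcript length and to library size, so that levels of different copines can be set side by side. Cpne1, Cpne2, Cpne3 and Cpne8 reached at least 0.1 FPKM in at least 6 mice and could be tested, whereas Cpne4, Cpne5, Cpne6, Cpne7 and Cpne9 did not. Because Cpne2 was chosen for its difference between the groups, its values are a description and carry no test.

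Tibialis anterior, a fast-twitch muscle of the lower leg, was collected from 6 control and 6 Smyd1 CKO mice at 6 weeks of age, and 1 library per mouse was sequenced after removal of ribosomal RNA. Controls were Myf6 cre/+; Smyd1 flox/+, with 1 working copy of Smyd1 in recombined fibers. Smyd1 CKO mice were Myf6 cre/+; Smyd1 flox/-. All were on a C57BL6/J;129S1/SvImJ background, and the cross described for the study also brought a Rosa26 YFP reporter into every animal. Cre was made from a cassette behind the coding part of Myf6, a gene of differentiated muscle fibers, so the deletion was aimed at fibers and not at the blood vessels, nerves or connective tissue that a whole muscle also holds. The - allele of the CKO mice came from a Sox2-cre deleter and was null in every cell. Outside recombined fibers, CKO mice thus had 1 working copy of Smyd1 and controls had both. The labels give no sex. The paper states, after its counts of central nuclei and fiber sizes in both sexes, that later experiments used male tissue only. In bulk tissue, fewer cells of a type and less RNA per cell cannot be told apart.

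Copines are soluble proteins with a pair of C2 domains, which attach to phospholipid membranes when calcium rises, followed by a von Willebrand factor A-type domain that binds other proteins. They carry signaling partners to the plasma membrane and are found in most tissues, with some members largely restricted to the nervous system. Cpne1, Cpne2, Cpne3 and Cpne8 are the broadly expressed members, and Cpne4, Cpne5, Cpne6, Cpne7 and Cpne9 are known mainly from brain.

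The family members are alike enough in sequence that reads could be confused, so the transcripts were compared first. The coding sequence of Cpne2 matched that of its paralogs at between 61.7% of bases for Cpne8 and 65.5% for Cpne6. The longest stretch without a mismatch that Cpne2 shared with a paralog was 23 bases, with Cpne6. The 30 bases below are the most conserved coding window across the family, at coding bases 1387 to 1416 of Cpne2, and show how far the paralogs differ even there. They were read from the GENCODE M21 transcripts (GRCm38). In the Cpne2 line, capitals mark the 20 bases shared by all 9 genes, and in every other line, capitals mark bases that differ from Cpne2.
Cpne1: ctgcccatgtccGtGatcatcgtgggtgtg
Cpne2: CTgCCcATGTCcaTcATcATcGTgGGtGTg
Cpne3: ctgcccatgtcTatcatcatTgtgggAgtT
Cpne4: ctCcccatgtcAGtcatcatcgtTggGgtg
Cpne5: ctCccTatgtcGatcatcatTgtTggCgtg
Cpne6: ctgcccatgtcAatcatcatcgtgggtgtg
Cpne7: ctgcccatgtcTGtcatcatTgtTggGgtg
Cpne8: ctTcccatgtcAatAatAatAgtAggtgtg
Cpne9: ctgcccatgtcTatcatTatTgtCggGgtC

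In this window Cpne6 differed from Cpne2 at 1 base, Cpne1 at 2, Cpne3 at 4, Cpne4 and Cpne7 at 5, and Cpne5, Cpne8 and Cpne9 at 6. Over whole transcripts, none of the 2293 stretches of 50 bases in Cpne2 occurred in any other gene, and no copine shared such a stretch with another copine. Cpne4, Cpne5, Cpne6, Cpne7 and Cpne9 were equally free of shared stretches. The search took exact matches only, while the authors' aligner allowed up to 2 mismatches, so misplacement of reads was not tested. Cpne3 shared 1.86% of its stretches and Cpne8 1.45% with genes outside the family. Cpne1 is the exception, since it overlaps Rbm12, which encodes an RNA-binding protein, on the same strand of chromosome 2. Of its 3443 stretches, 158 (4.59%) also occurred in Rbm12, and 98.7% occurred in Rbm12 or in Gm28036, an annotated read-through transcript that had no row in the files. Its level is therefore less certain than those of the other copines, and Rbm12 is given beside it below.

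Cpne2 was low in every control. It was listed at 0.683, 0.215, 0.733, 0.482, 0.221 and 0.287 FPKM in controls 1 to 6. In Smyd1 CKO mice 1 to 6 it was 5.36, 2.82, 5.13, 2.73, 1.35 and 5.65 FPKM. The groups did not overlap, as for 2.23% of all tested genes in this direction and 0.189% in the other, and the lowest CKO value was 1.84 times the highest control value. The mean was 0.437 ± 0.232 FPKM in controls and 3.84 ± 1.78 FPKM in CKO mice (SD, n = 6 per group), which is 8.80-fold. On the scale of log2(FPKM + 0.1), where the pseudocount of 0.1 makes the change of a low gene smaller, the difference was 2.84 with a standard error of 0.35. By this measure Cpne2 was in place 3 of the 12695 genes tested, and the median over all of them was 0.18. The spread was wide within both groups. The highest CKO mouse had 4.19 times the Cpne2 of the lowest, and the highest control 3.41 times that of the lowest.

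The other copines with measurable levels are given next. Cpne3, a broadly expressed copine known for binding the ERBB2 receptor, was the most abundant copine of control muscle. It ranged from 1.63 to 3.10 FPKM in controls with a median of 2.41, and from 2.54 to 3.04 FPKM in CKO mice with a median of 2.85. The CKO values all lay inside the control range. The means were 2.38 ± 0.518 and 2.83 ± 0.161 FPKM (SD, n = 6 per group). The log2 difference of 0.26 (standard error 0.139) did not pass the test, with an adjusted p of 0.306 by limma and a 95% interval from -0.04 to 0.56.

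Cpne1, a widely expressed copine, ranged from 1.40 to 2.52 FPKM in controls with a median of 1.57, and from 1.84 to 2.33 FPKM in CKO mice with a median of 2.26. All 6 CKO mice were above the control median, but none was above control 1, the highest control. The means were 1.73 ± 0.435 and 2.17 ± 0.199 FPKM (SD, n = 6 per group). The log2 difference was 0.34 (standard error 0.148) with a 95% interval from 0.02 to 0.65, and the adjusted p by limma was 0.218. Its overlapping neighbor Rbm12 had 1.63 ± 0.251 FPKM in controls and 2.09 ± 0.181 FPKM in CKO mice (SD, n = 6 per group). The log2 difference of Rbm12, 0.35 (standard error 0.126, limma adjusted p = 0.15), was of the same size as that of Cpne1.

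Cpne8, another broadly expressed member, ranged from 0.334 to 0.917 FPKM in controls with a median of 0.483. In CKO mice it ranged from 0.493 to 1.01 FPKM with a median of 0.715. One CKO mouse was above all controls, and the groups overlapped over most of their range. The means were 0.542 ± 0.207 and 0.736 ± 0.187 FPKM (SD, n = 6 per group). The log2 difference was 0.41 (standard error 0.219) with a 95% interval from -0.06 to 0.87, and it did not pass the test (limma adjusted p = 0.311).

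**Figure D1:**
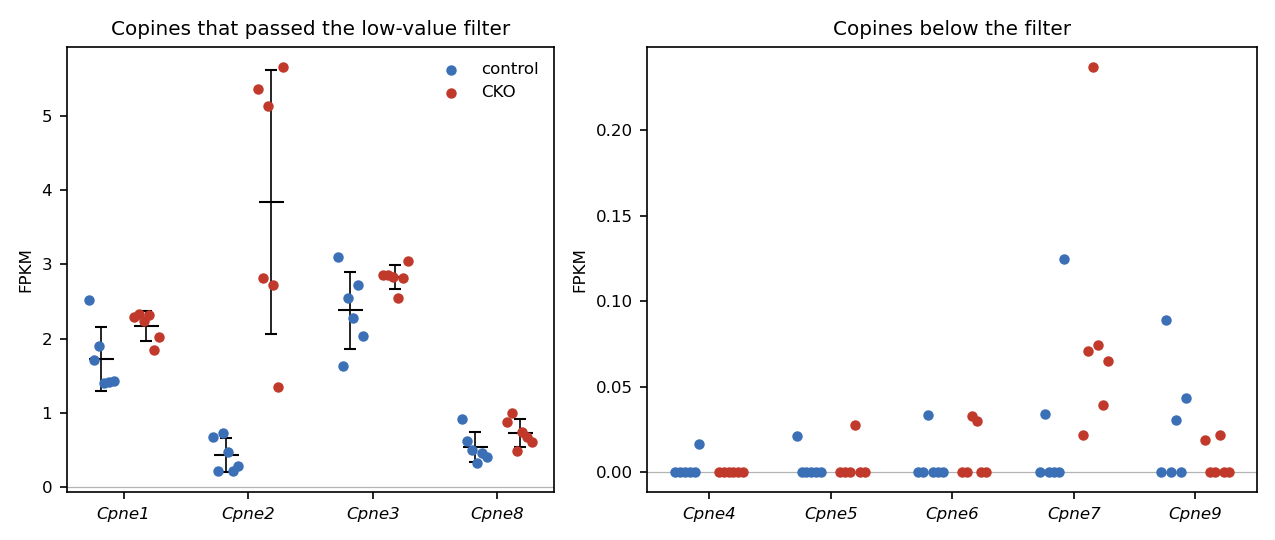
FPKM of the 9 copines in each mouse, with controls in blue and Smyd1 CKO mice in red; the left panel holds the 4 copines that passed the filter, with the mean and SD in black, and the right panel the 5 below it on a smaller scale. Only Cpne2 has CKO values that all lie above the control values, with 0.733 FPKM as the highest control and 1.35 FPKM as the lowest CKO mouse.

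None of the 3 tested copines taken by name passed an adjusted p of 0.05 by limma. Across all 12695 genes tested, 2.02% were called higher and 0.268% lower, or 2.29% in all. At an unadjusted p under 0.05, 1 of the 3 was higher, Cpne1, beside 18.1% of all genes called higher, 1.76% called lower and 19.9% in either direction. The positive sign shared by the 4 copines was common, since 77.9% of all genes had a log2 difference above 0. Relative to the median gene at 0.18, Cpne1, Cpne3 and Cpne8 lay higher by less than their standard errors or little more. When the samples were rescaled by median ratios, the median gene moved to 0.01, and the differences became 0.16 for Cpne1, 0.08 for Cpne3, 0.25 for Cpne8 and 2.68 for Cpne2, with 0.764% of all genes called higher.

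Control 1 stood apart from the other controls, and it bears on these values. It held the highest control level of Cpne1, Cpne3 and Cpne8. Its summed level of 8 fibroblast and connective tissue markers was 846 FPKM, against 227 to 288 FPKM in the other 5 controls and 296 to 497 FPKM in CKO mice. Its sum of 8 macrophage and leukocyte markers was 22.5 FPKM, against 6.93 to 9.92 FPKM in the other controls. The part of these cells in the copine values was not tested. Without control 1, Cpne1 averaged 1.57 ± 0.222 FPKM in the remaining controls (SD, n = 5), and its log2 difference of 0.45 (standard error 0.124) passed the test with a limma adjusted p of 0.0379. Over the 12 fits that each left out 1 mouse, the adjusted p of Cpne1 by limma ran from 0.0379 to 0.366, and control 1 was the single mouse whose absence brought it under 0.05. In the fit without control 1, 8.56% of all genes were called higher and the median gene was at 0.22. Cpne3 then had a log2 difference of 0.34 (limma adjusted p = 0.105) and Cpne8 of 0.55 (limma adjusted p = 0.0889). Cpne2 had 2.97 in the same fit.

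The 5 copines known mainly from brain were at or near 0. Cpne4 was listed at 0 in every mouse but control 6, at 0.0164 FPKM. Cpne5 was above 0 in control 1 and CKO 4, at 0.0212 and 0.0274 FPKM, and Cpne6 in control 3, CKO 3 and CKO 4, at up to 0.0337 FPKM. The depth of these libraries sets such values. FPKM was multiplied by the relative depth of its library, which was itself read from low values of the same libraries. For each gene, the smallest non-zero product was taken as 1 step, so that value is 1 step by definition. With this, 19 of 19 non-zero values came within 0.1 of a whole multiple of the step of their gene. They are 1 to 8 such steps each, and what a step is in fragments is unknown. In these steps, Cpne4 had 1 in controls and 0 in CKO mice, Cpne5 had 1 and 2, and Cpne6 had 1 and 2, too few to show a difference at this depth.

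Cpne7 was seen in more mice than the other brain copines. Its values were 0, 0.0343, 0, 0, 0 and 0.125 FPKM in controls 1 to 6 and 0.0218, 0.0711, 0.237, 0.0746, 0.0391 and 0.0652 FPKM in CKO mice 1 to 6. It was above 0 in 2 controls and in all 6 CKO mice. In steps, this came to 6 over the controls, of which 5 were in control 6, and 17 over the CKO mice, of which 8 were in CKO 3. Cpne9 went the other way, with 6 steps over 3 controls and 2 steps over 2 CKO mice. Both genes were below the filter and were not tested, and the groups overlapped for both.

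Among the 4 tested copines, the place of Cpne2 in the order of levels differed between the groups. In controls it ran Cpne3, Cpne1, Cpne8 and Cpne2, with the remaining copines far below. Cpne3 was above Cpne1 in 5 of 6 controls and Cpne8 above Cpne2 in 4 of 6, so neither pair differed beyond its spread, whereas Cpne1 lay above Cpne8 in all 6 with no overlap. In CKO mice the order was Cpne2, Cpne3, Cpne1 and Cpne8. Cpne2 exceeded Cpne3 in 4 of 6 CKO mice, the exceptions being CKO 2 and CKO 5, and these ranges overlapped. Cpne3, Cpne1 and Cpne8 kept their order in each CKO mouse without overlap.

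The family was also summed in each mouse. All 9 copines together had 5.16 ± 1.14 FPKM in controls and 9.68 ± 1.91 FPKM in CKO mice (SD, n = 6 per group). Without Cpne2, the sums were 4.72 ± 0.974 and 5.84 ± 0.308 FPKM, ranging from 4.05 to 6.56 in controls and from 5.37 to 6.27 in CKO mice, so these ranges overlapped. Cpne2 supplied 8.18% ± 3.31 of the sum in controls, from 4.59% to 12.8%. In CKO mice it supplied 37.8% ± 11.8, from 20.1% in CKO 5 to 49.7% in CKO 6. The share of Cpne3 was 46.5% in controls and 30.1% in CKO mice, and that of Cpne1 33.5% and 23.1%.

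**Figure D2:**
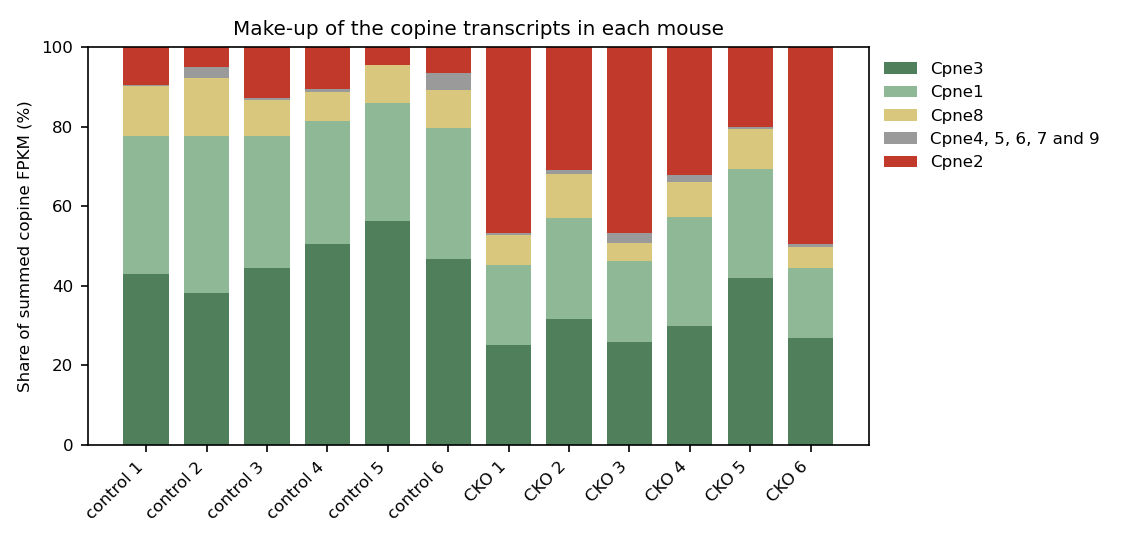
Share of each copine in the summed copine FPKM of each mouse, in percent; each bar is 1 mouse and the gray segment pools Cpne4, Cpne5, Cpne6, Cpne7 and Cpne9. The red segment, Cpne2, takes 4.59% to 12.8% in controls and 20.1% to 49.7% in Smyd1 CKO mice.

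The genes beside Cpne2 on chromosome 8 that could be tested had small differences. Fam192a, the next gene on one side, had 4.14 ± 0.843 FPKM in controls and 4.39 ± 0.574 FPKM in CKO mice (SD, n = 6 per group), a log2 difference of 0.10 (standard error 0.139, limma adjusted p = 0.718) that was below 0 after either rescaling of the samples. Rspry1, which follows it and encodes a RING finger protein, had 1.34 ± 0.414 and 1.77 ± 0.432 FPKM, a log2 difference of 0.40 (standard error 0.20, limma adjusted p = 0.288). On the other side, Mir7072 was listed at 0 in every mouse and Nlrc5, a regulator of MHC class I genes, was under the filter. Nlrc5 had 0.0426 ± 0.0436 FPKM in controls and 0.129 ± 0.174 FPKM in CKO mice (SD, n = 6 per group). It ranged from 0 to 0.107 FPKM in controls and from 0 to 0.468 FPKM in CKO mice, and was not tested. The 4 tested copines lie on 4 chromosomes, and of the 16 genes nearest to them 9 could be tested. None of these passed the adjusted threshold by limma, which 2.02% of all genes passed as higher. At an unadjusted p under 0.05, 2 of the 9 were higher, Rbm12 beside Cpne1 and Alg10b beside Cpne8, next to 18.1% of all genes.

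Proteins described as binding copines form the next group. The list of 13 included kinases, a phosphatase, cytoskeletal proteins and the ERBB2 receptor. All 12 that were found under their listed symbols were tested, and 0 passed at the adjusted threshold by limma, against 2.29% of all genes. At an unadjusted p under 0.05, 3 were higher and none lower, against 18.1% of all genes higher. Their median log2 difference was 0.20, close to the 0.18 of all genes. Bicd2, an adaptor of the dynein motor, had 3.61 ± 0.428 FPKM in controls and 4.71 ± 0.475 FPKM in CKO mice (SD, n = 6 per group), with a limma adjusted p of 0.083. Its groups nearly touched, at 4.0494 FPKM in control 1 and 4.0495 FPKM in CKO 2. Map2k1, the kinase MEK1, had a log2 difference of 0.39 (limma adjusted p = 0.126), and Cdc42bpb, a kinase activated by CDC42, had 0.28 (limma adjusted p = 0.23). Without control 1, the count of binding partners called was 3, comprising Map2k1, Bicd2 and Gnb2l1, against the 8.56% of all genes called higher in that fit.

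Other proteins that bind membranes through C2 domains were taken in 3 lists, to be read against the 2.02% of all genes called higher and the 18.1% higher at an unadjusted p under 0.05. Among the ferlins and extended synaptotagmins, 5 of 9 genes found could be tested, with 1 called higher, none called lower, 3 higher at an unadjusted p under 0.05 and a median log2 difference of 0.37. This was Dysf, which encodes dysferlin, a protein of membrane repair in muscle fibers. Its level was 6.20 ± 0.944 FPKM in controls and 8.41 ± 0.574 FPKM in CKO mice (SD, n = 6 per group). The highest control, at 7.62 FPKM, lay just below the lowest CKO mouse, at 7.64 FPKM. The log2 difference was 0.45 (standard error 0.11, limma adjusted p = 0.0477). Esyt1 and Esyt2, which tether the endoplasmic reticulum to the plasma membrane, had 0.47 and 0.37 with limma adjusted p of 0.0767 and 0.0811. The summed level of this list was 14.3 to 16.3 FPKM in controls and 18.2 to 22.0 FPKM in CKO mice, with the 3 highest sums in CKO 1, CKO 3 and CKO 6.

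Synaptotagmins and other proteins of vesicle release were mostly near 0, and 10 of 32 could be tested. No gene of this list was called by limma at the adjusted threshold, 1 was higher at an unadjusted p under 0.05, and the median log2 difference was -0.06. Syt11, a synaptotagmin, had a log2 difference of 0.43 (limma adjusted p = 0.232). Doc2g had 0.67 (limma adjusted p = 0.314) and Syt12 had -0.50 (limma adjusted p = 0.401). Among signaling enzymes with a C2 domain, 23 of 28 were tested, with 1 called higher, none called lower, 7 higher at an unadjusted p under 0.05 and a median of 0.17. Plcg1, the phospholipase C downstream of growth factor receptors, had 1.93 ± 0.306 FPKM in controls and 2.89 ± 0.458 FPKM in CKO mice (SD, n = 6 per group). The highest control, at 2.41 FPKM, lay just below the lowest CKO mouse, at 2.45 FPKM. The log2 difference was 0.56 (standard error 0.136, limma adjusted p = 0.0461). Nedd4, a ubiquitin ligase, and Plcd1, another phospholipase C, had 0.37 and 0.56 with limma adjusted p of 0.0826 and 0.13. The calls of Dysf and Plcg1 sat close to the threshold, and each was lost in 14 of the 20 alternative fits.

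**Figure D3:**
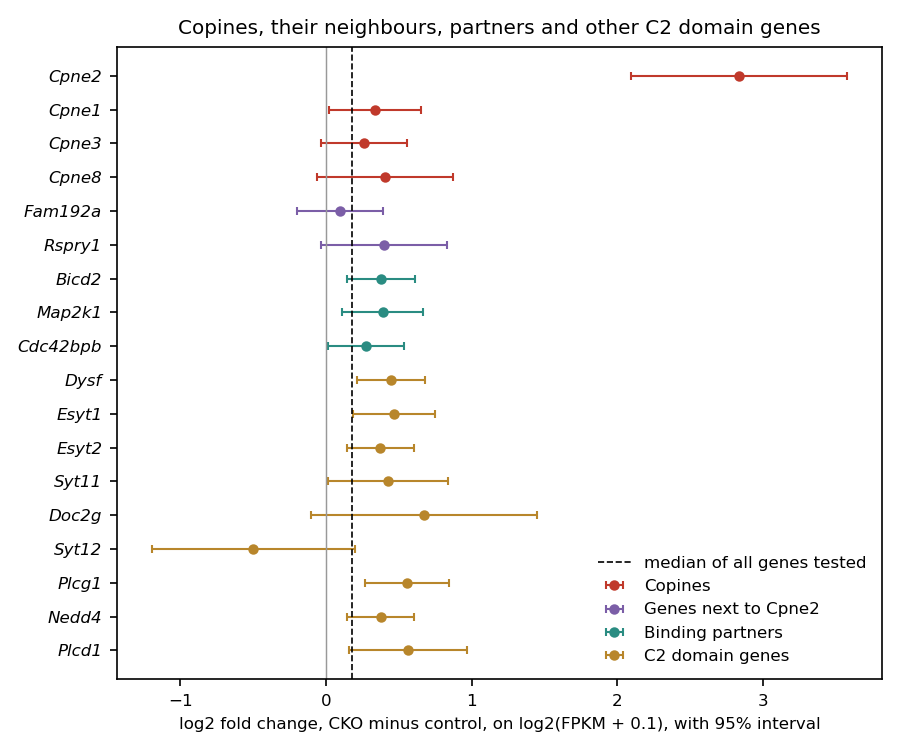
Log2 difference between Smyd1 CKO and control mice on the scale of log2(FPKM + 0.1), with 95% intervals from limma, for the tested copines, genes next to Cpne2, copine binding partners and other genes with C2 domains; the dashed line is the median of all genes tested, 0.18. Cpne2 lies at 2.84, and the other genes plotted lie between -0.50 and 0.67.

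Cpne2 varied among CKO mice together with several other transcripts. Correlations of log2 values were taken over the 12 mice, which share the group difference and a library each, and are given as a description. The highest Pearson r with Cpne2 was that of Trp63, which encodes the transcription factor p63, at 0.983, followed by Lamb2, a laminin chain of the synaptic basal lamina, at 0.971. Ddb1, an adaptor of a ubiquitin ligase, Mvp, the major vault protein, and Zfp704, a zinc finger protein, had 0.968, 0.967 and 0.962. Over all tested genes, the median r with Cpne2 was 0.35 and 112 genes were above 0.9. Trp63 had 1.17 ± 0.311 FPKM in controls and 3.01 ± 0.962 FPKM in CKO mice, and Mvp 2.73 and 7.40 FPKM (n = 6 per group).

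The likeness was also measured within groups, on deviations of the 12 values from their group means. The highest r were those of Nrk, a kinase, and Trp63, both 0.950, followed by 0.943 for Paqr8, a membrane progestin receptor, 0.928 for Oard1 and 0.924 for Mvp. Trp63 and Mvp were thus on both lists. Within groups, 13 genes were above 0.9. Nrk and Paqr8 lay close to the filter of 0.1 FPKM, at means of 0.119 and 0.132 FPKM in controls and 0.170 and 0.157 FPKM in CKO mice. Other copines were less like Cpne2. Over the 12 mice r was 0.722 for Cpne1, 0.642 for Cpne3 and 0.471 for Cpne8, and within groups it was 0.508, 0.452 and 0.03, against a median of 0.23 over all genes.

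The 3 CKO mice with the most Cpne2 also had the 3 highest sums of 4 of the marker lists. The denervation-responsive list holds 14 genes, most of which muscle fibers raise when they lose their nerve supply. Chrne, the adult acetylcholine receptor subunit, is listed but is not known for such a rise. The list summed to 71.6, 57.8 and 77.3 FPKM in CKO 1, CKO 3 and CKO 6, and to 33.7 to 46.9 FPKM in the other 3 CKO mice. Controls had 24.3 to 35.8 FPKM. Of the 12 that were tested, 4 were called higher and none lower, against 2.02% and 0.268% of all genes. At an unadjusted p under 0.05, 11 of the 12 were higher, against 18.1%, and the median log2 difference was 0.78. The 4, named here after their values were seen, were the acetylcholine receptor subunits Chrna1, Chrnd and Chrne and the embryonic myosin Myh3. Chrnd was called in every alternative fit that tested it, while Chrna1, Chrne and Myh3 lost the call in 11, 9 and 13 alternative fits. Chrng, the fetal receptor subunit, was under the filter and listed at 0 in some mice. Its means were 0.0190 FPKM in controls and 0.0979 FPKM in CKO mice.

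The 11 slow-twitch fiber markers summed to 210, 153 and 396 FPKM in CKO 1, CKO 3 and CKO 6. In CKO 2, CKO 4 and CKO 5 the sums of 67.3 to 76.1 FPKM fell inside the control range of 45.3 to 95.8 FPKM, although Cpne2 was above all controls in these mice as well. The sum mixes genes of both directions. Myl3, at 22.0 of the mean control sum of 70.9 FPKM, had a log2 difference of -0.52 (limma adjusted p = 0.33), and the other markers were above 0. It was 11.1, 9.66 and 18.3 FPKM in CKO 2, CKO 4 and CKO 5. A sum inside the control range thus does not show each slow marker at its control level. All 11 were tested, and 9 were higher at an unadjusted p under 0.05, against 18.1% of all genes, with a median log2 difference of 1.18. At the adjusted threshold 1, Myh7b, was called higher, against 2.02%, with the call lost in 14 alternative fits. The 6 satellite cell markers, which mark muscle stem cells, summed to 17.3, 15.2 and 17.2 FPKM in CKO 1, CKO 3 and CKO 6, to 10.4 to 11.5 FPKM in the other CKO mice and to 5.46 to 10.7 FPKM in controls. At an unadjusted p under 0.05, 5 of the 6 were higher, against 18.1% of all genes, at a median of 0.89. Itga7, which is also made by muscle fibers, was 1 of 6 called higher, against 2.02%, here and in each of the 20 alternative fits. It had 9.38 of the mean satellite sum of 13.8 FPKM in CKO mice. The 10 Schwann cell and nerve markers summed to 18.5, 21.7 and 18.5 FPKM in CKO 1, CKO 3 and CKO 6, to 13.8 to 17.0 FPKM in the other CKO mice and to 11.9 to 16.6 FPKM in controls. Of the 7 tested, 0 were called by limma at the adjusted threshold and 3 were higher at an unadjusted p under 0.05, against 18.1%. Pmp22 held 7.93 of the mean CKO sum of 17.4 FPKM, so the sum says less of the other markers. S100b had a log2 difference of -0.28 (limma adjusted p = 0.528), and the other tested markers were above 0. Nefl was under the filter, listed at 0 in all controls and at 0 to 0.0356 FPKM in CKO mice, with a CKO mean of 0.00593 FPKM. The part of slow fibers, satellite cells, Schwann cells or fibers short of nerve input in the Cpne2 values was not tested.

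**Figure D4:**
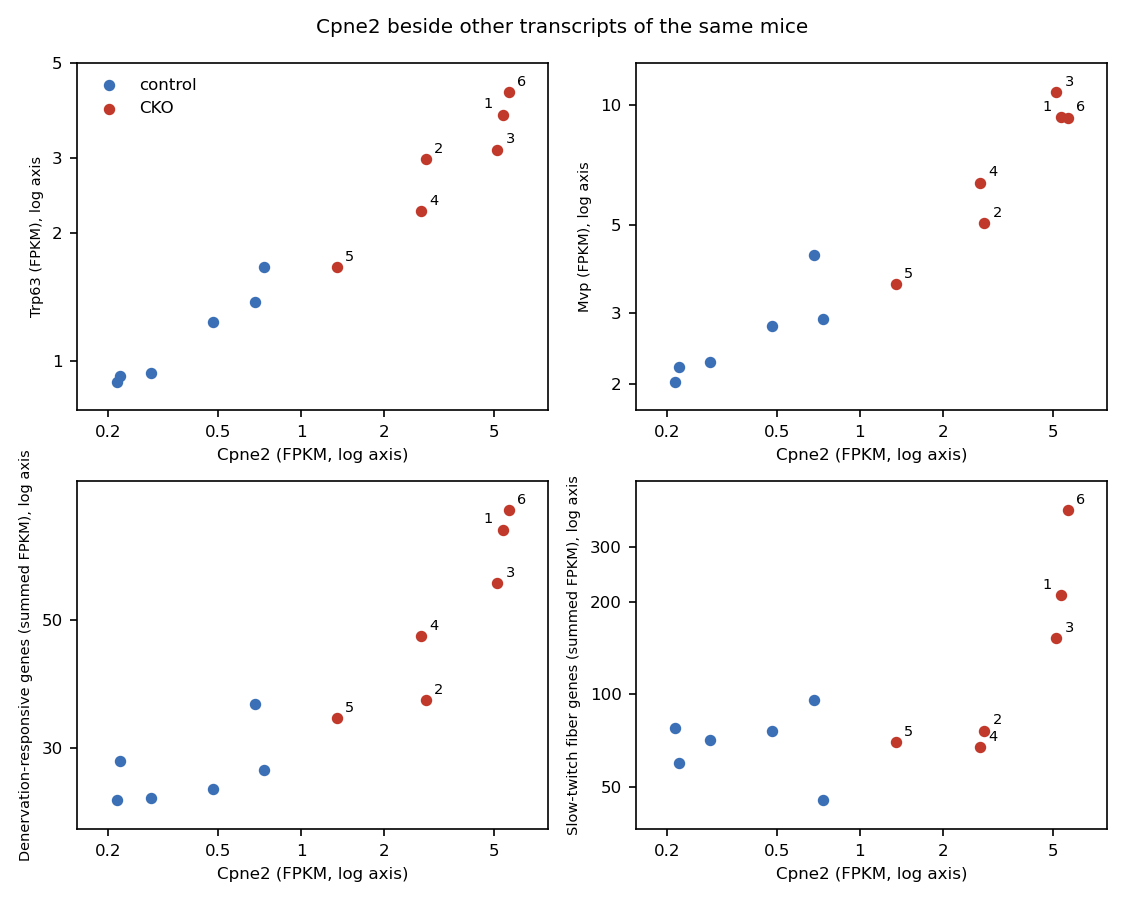
FPKM of Cpne2 against FPKM of Trp63 and Mvp and against summed FPKM of the denervation-responsive and slow-twitch fiber lists, on log axes; each point is 1 mouse, and CKO mice carry their number. CKO 1, CKO 3 and CKO 6 lie at the upper right in each panel, and the slow-twitch sums of CKO 2, CKO 4 and CKO 5 lie among the controls.

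For the other cell types no marker was called at the adjusted threshold, which 2.02% of all genes passed as higher. Endothelial markers summed to 36.4 to 48.9 and 37.5 to 54.5 FPKM, with 0 of 8 called by limma and 0 at an unadjusted p under 0.05. Adipocyte markers summed to 94.6 to 308 FPKM in controls, the highest in control 1, and 94.9 to 211 FPKM in CKO mice. Fabp4 held 155 of the mean control sum of 156 FPKM and had a log2 difference of -0.20 (limma adjusted p = 0.686). The sum therefore says little of the other adipocyte markers. Cfd had 1.39 (limma adjusted p = 0.0564), and the median over the 4 tested was 0.62. For fibroblast, macrophage and adipocyte markers, limma called 0 of 8, 0 of 8 and 0 of 4 at the adjusted threshold. At an unadjusted p under 0.05, 2, 0 and 2 were higher, against 18.1% of all genes. The 10 fast-twitch fiber markers summed to 21510 to 35758 FPKM in controls and 25175 to 29790 FPKM in CKO mice, with a median log2 difference of -0.25. Of the 10, 3 were higher at an unadjusted p under 0.05, against 18.1% of all genes. They were the fast myosins Myh1, Myh2 and Myh4. Only Myh1 was called at the adjusted threshold, against 2.02% of all genes. The 7 markers other than these myosins had log2 differences of -0.40 to -0.09 and did not pass.

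Smyd1 itself did not tell the groups apart at the level of the whole gene. It was 32.9 to 47.1 FPKM in controls with a median of 34.9, and 27.8 to 39.9 FPKM in CKO mice with a median of 33.5. The log2 difference was -0.13 (standard error 0.116, limma adjusted p = 0.545). A value over the whole gene can include transcripts that lack the deleted exons, so it does not check the labels, from which the groups were taken. The relative depth of the libraries was read from the steps between values below 0.15 FPKM. It ran from 0.984 in CKO 5, the CKO mouse with the least Cpne2, to 1.77 in CKO 1. In CKO 6, the CKO mouse with the most Cpne2, it was 1.18. The median relative depth was 1.19 in controls and 1.24 in CKO mice. An exact permutation test of the difference of group means gave a p of 0.524 (two-sided, n = 6 per group).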

How the data were processed

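RNA of tibialis anterior from 6 control and 6 Smyd1 CKO mice was sequenced by the authors after depletion of ribosomal RNA. They trimmed adapters, aligned reads with bowtie2 and TopHat2 2.0.10 allowing at most 2 mismatches, removed reads with more than 1 mapping place, and derived the deposited FPKM per gene symbol with Cufflinks 2.1.1; tool versions and the mm9 build come from the submitters' processing notes. The annotation is not given in the sources used here. The study's own comparison used DESeq on counts, which were not used here.

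Of 23950 rows, 27 with a date in place of a symbol were left out. The FPKM as deposited, plus a pseudocount of 0.1, were put on the log2 scale and compared with limma 3.58.1 (intensity trend, no block) in R 4.3.3 over the 12695 genes that reached 0.1 FPKM in 6 or more of 12 samples, and adjusted p are Benjamini-Hochberg values over all of them. A call is an adjusted p under 0.05. The code was tested on simulated data. Fragment numbers are unknown, so no counting interval is given, and 5 genes were listed at 0 in 1 sample and at 10 FPKM or more in another, so a 0 can be a failed estimate. Group labels do not say whether mice were littermates. Correlations of log2 values between libraries of a group were 0.943 to 0.972.

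The members and all gene lists were chosen with earlier results of these data known. Named were all copines and Smyd1, the 3 genes with the smallest p in each C2 list and among the binding partners, the neighbors of Cpne2, and the 5 genes most like Cpne2 by each measure. From a cell type or fiber list at most the 2 with the highest FPKM were to be named. Genes named outside this rule are Rbm12, Alg10b, Gnb2l1, Myh2, Myh4, S100b and the called or unmeasured markers, chosen after their values were seen. Symbols, neighbor order and transcript sequences came from GENCODE M21 (GRCm38), which is not the authors' build, so no coordinates are printed. Fer1l6, Rack1 and Adgre1 had no row under those symbols, and Gnb2l1 and Emr1 are the older symbols of the last 2. 1 gene of a marker list is not reported here. Alternatives were a pseudocount of 1, no filter or a filter at 1 FPKM, median-ratio scaling, quantile normalization, the replicate number as a block, no trend, sample weights, and each mouse left out in turn.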

Additional observations from a re-analysis of the deposited data

Results flagged for a closer look

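In each group of 6 mice, the highest and lowest value of each copine was compared with its nearest neighbor, and a value was singled out where that gap passed Dixon's critical value for 6 samples at the 95% level. Of 13 groups with 2 or more values above 0, 2 held such a value. Both were Cpne7. Chance gives about 1 in 20 only for normally distributed values. Values of 0 and a few whole steps are not, so this rate does not apply to Cpne7. Control 6 had 0.125 FPKM, with 0.0343 FPKM as the next value among controls, and CKO 3 had 0.237 FPKM, with 0.0746 FPKM as the next value among CKO mice. These amount to 5 and 8 of the smallest steps.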

How the results depend on the processing

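The log2 difference of Cpne2 stayed between 2.65 and 3.16 except with a pseudocount of 1, where it was 1.67, and leaving out 1 mouse gave 2.70 to 3.09. Fam192a had -0.086 after median-ratio scaling and -0.076 after quantile normalization. The count of copines called holds Cpne2, which was chosen for its difference. It was 1, and 2 with sample weights and without control 1, where Cpne1 was added (log2 difference 0.47 with sample weights, limma adjusted p = 0.0265, in a range of 0.0265 to 0.704 over the 8 alternatives that kept all mice). It was 1 to 2 over the fits that left out a mouse. The count of C2 genes called higher, 2 as reported, was 1 with a pseudocount of 1, 9 with sample weights, and 0 with no filter, median-ratio scaling, quantile normalization, the replicate block or no trend, and 0 to 6 when 1 mouse was left out, with 6 without control 1. Binding partners called were 3 with sample weights and 0 to 3 when 1 mouse was left out.

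Among all genes, 257 were called higher and 34 lower. The higher count was 170 with no filter, 97 with median-ratio scaling, 101 with quantile normalization and 1400 with sample weights, and 88 to 1075 when 1 mouse was left out, the lowest without CKO 1 and the highest without control 1. The lower count was 90, 68 and 115 with median-ratio scaling, quantile normalization and sample weights, and 18 to 69 when 1 mouse was left out. With either rescaling the share of calls that were lower was thus larger. The cause of these changes was not tested.

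The labels number the mice 1 to 6 in both groups. Deviations of same-numbered pairs correlated at -0.0861 to 0.164, 2 of 6 pairs were over 0.1, and 2 of 6 controls correlated best with their own number, so the numbers were not taken to pair the mice. With this number as a replicate block, the limma adjusted p was 0.196 for Cpne1, 0.304 for Cpne3 and 0.249 for Cpne8, 272 genes were called higher and 40 lower, and Dysf, Plcg1, Chrna1 and Myh7b were no longer called. With a filter at 1 FPKM, Cpne8 was not tested. Depth limits what can be said of Cpne4, Cpne5, Cpne6, Cpne7 and Cpne9.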
